A study of Cicer arietinum with 18 samples.

Results

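A group of 47 array features of chickpea (Cicer arietinum) was lower than the untreated control 3 h after salicylic acid (SA) or aminocyclopropane carboxylic acid (ACC) and, as a mean, near control 27 h after both. The features were chosen on the measured values. The mean log2 ratio over the 3 genotypes had to be at or under -0.4 at 3 h under SA or under ACC, and to lie above -0.5 and below 0.4 at 27 h under both compounds, with at least 2 values in each mean. Near control means inside these 27 h limits, so a mean between -0.5 and -0.4 could count as low at 3 h and as near control at 27 h. The rule was applied to the 559 features whose identifiers are CA or U followed by digits, out of 715 experimental features on the array. Of the 559, 440 had enough values and 159 lay inside the limits at 27 h, of which 47 also met the limit at 3 h and 112 did not. A log2 ratio of -1 is a 2-fold lower level.

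The array was a spotted 2-colour cDNA array, hybridised with RNA of treated and untreated shoots (stem and leaf) of seedlings aged 14 days. Each of 3 lines (Lasseter, ICC3996 and FLIP94-508C) was treated with each of 3 compounds (SA, ACC, and methyl jasmonate or MeJA) and harvested 3 h and 27 h later, which gives 18 samples in 6 groups of compound and time. Plants were pooled for each genotype and time, and each deposited value is the authors' mean over 3 biological replications with dye swaps, so the genotypes are the only replicates of a compound at a time (n = 3). Ratios are read as treated over control, a direction that is likely from the order of the channels in the labels but is not stated for the values. A sample held values for 438 to 512 of the 559 features, with an SD over these features of 0.25 to 1.16 (log2). The sample medians over all experimental features lay between -0.32 and -0.002. In a sample of whole shoots, a lower level per cell and fewer cells that express a gene cannot be told apart.

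SA is the plant hormone that accumulates on attack by many biotrophic pathogens and sets up systemic acquired resistance. ACC is converted by ACC oxidase to ethylene, a gas hormone of stress, ripening and senescence, and jasmonates are lipid-derived hormones of wounding and of defence against insects and necrotrophs. In model plants such as Arabidopsis the SA pathway often acts against the jasmonate and ethylene pathways. The series treated plants with each compound to compare the responses of chickpea lines that differ in resistance to ascochyta blight, a fungal disease, against which Lasseter is regarded as susceptible, FLIP94-508C as moderately resistant and ICC3996 as resistant. The identifiers are not paired with genes in the files used here and 0 matched the reference gene table, so the features are described by identifier and no role is given to any of them.

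Of the 47 features, 27 met the 3 h limit under SA only, 12 under ACC only and 8 under both. By identifier, 11 started with CA and 36 with U, which is 9.40% of the CA and 8.14% of the U features. Another 9 features, with identifiers that start with LS, met the same limits but lie outside the rule. The lowest and highest 3 h means were -2.83 and 0.90 under SA and -1.11 and 0.44 under ACC, since a feature chosen for one compound could take any value at 3 h under the other. Of the 27 features chosen for SA only, 10 were above and 17 below control at 3 h under ACC. There 295 of the 478 measured CA or U features were below. Of the 12 chosen for ACC only, 6 were above and 6 below control at 3 h under SA, where 283 of the 458 measured CA or U features were below. The medians at 3 h were -0.48 under SA and -0.24 under ACC, against -0.18 and -0.15 over all CA or U features. These values chose the features, and no test was made of them. The sources do not say if SA and ACC plants had common controls, so the count of 8 is given as the rule sets it.

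**Figure D1:**
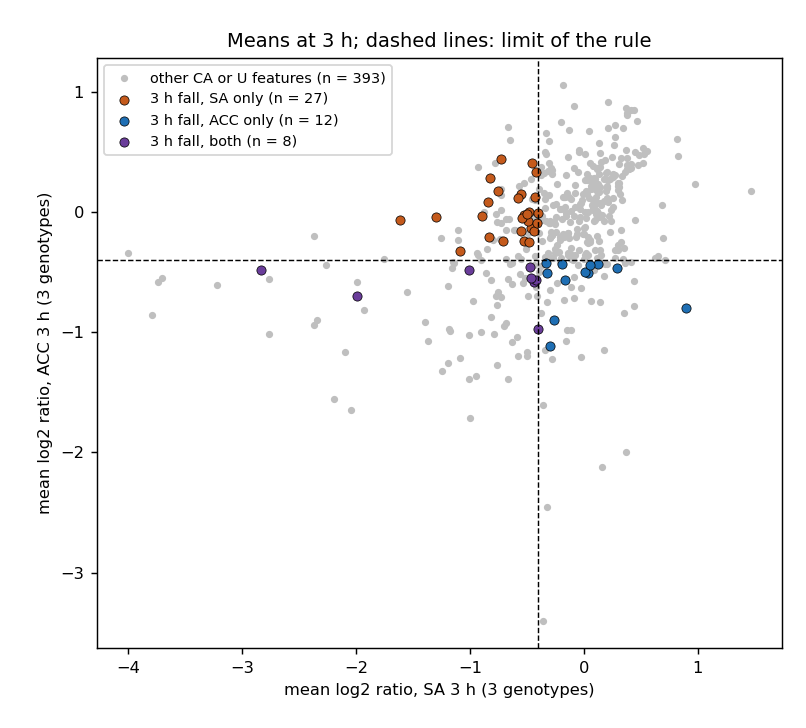
Mean log2 ratio at 3 h under SA (x axis) and under ACC (y axis) over the 3 genotypes, for the 440 CA or U features with at least 2 values in each SA and ACC group. Coloured points are the 47 features by the compound of their 3 h fall, grey points are the others, and the dashed lines mark the limit of -0.4; most coloured points lie close to a line, and U386 (0.90 and -0.80) lies far to the right.

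Many of the 47 lay near the limit. Under SA 15 features had a 3 h mean within 0.1 below -0.4, and 8 features inside the 27 h limits had one within 0.1 above it. Under ACC the numbers were 9 and 12. Just inside the limit under SA were U246 at -0.40 ± 0.41 and U372 at -0.41 ± 0.40, and just outside were CA1196 at -0.39 ± 0.55 and CA0112 at -0.38 ± 0.64 (SD, n = 3). Just inside under ACC were U170 at -0.43 ± 0.79 and CA0030 at -0.43 ± 0.83, and just outside were U349 at -0.40 ± 1.19 and U350 at -0.39 ± 0.96 (SD, n = 3). The spread between genotypes was thus as large as the distance from 0 on both sides of the limit. With the median of each sample subtracted, 41 features met the rule, and 20 of them were among the 47. Of the 27 that left, 14 fell outside the 27 h limits and 13 no longer reached the limit at 3 h.

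The 3 h fall under SA was carried mainly by Lasseter. The limit was met under SA by 35 of the 47 features (33% of all measured CA or U features met it, and the rule used these values). Among the 35, Lasseter had the lowest of the 3 values in 32, ICC3996 in 2 and FLIP94-508C in 1. Among all 151 CA or U features at or under -0.4 at 3 h under SA, Lasseter was lowest in 68.9%. The values of the 35 ran from -5.41 to -0.41 in Lasseter (median -1.17), from -2.04 to 0.53 in ICC3996 (median -0.24) and from -1.91 to 0.09 in FLIP94-508C (median -0.34). Of all 47 features, 26 were at or under -1 in Lasseter, where 23.2% of the measured CA or U features were. In ICC3996 3 of 47 were (9.19% of the measured features) and in FLIP94-508C 2 of 47 (6.95%). Direction was shared more widely than size: 21 of the 35, and 22 of all 47, were below control in all 3 genotypes (22.7% of all CA or U features with 3 values). Among all CA or U features at or under -0.4 at 3 h under SA, 76 of the 122 with 3 values were, a share near that of the 35. Without the Lasseter sample 13 of the 35 still had a mean at or under -0.4, against 34 without FLIP94-508C and 32 without ICC3996.

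The 3 h fall under ACC was carried mainly by FLIP94-508C. The limit was met under ACC by 20 of the 47 features (30.5% of all measured CA or U features met it, again used by the rule). Among the 20, FLIP94-508C was lowest in 17, Lasseter in 3 and ICC3996 in 0. Among all 146 CA or U features at or under -0.4 at 3 h under ACC, FLIP94-508C was lowest in 58.2%. The values of the 20 ran from -1.95 to -0.32 in FLIP94-508C (median -1.43), from -2.11 to 0.21 in Lasseter (median -0.02) and from -0.56 to 0.19 in ICC3996 (median 0.05). Of the 20, 7 were below control in all 3 genotypes, as were 8 of all 47 (22.5% of all CA or U features with 3 values). Among all CA or U features at or under -0.4 at 3 h under ACC, 79 of the 125 with 3 values were, a larger share than in the 20. Of all 47 features, 19 were at or under -1 in FLIP94-508C (28.5% of the measured CA or U features), 4 in Lasseter (14.7%) and 0 in ICC3996 (4.15%). Without the FLIP94-508C sample 6 of the 20 kept a mean at or under -0.4, against 20 without ICC3996 and 19 without Lasseter. These 2 samples, Lasseter after SA and FLIP94-508C after ACC, also had the widest spread over all CA or U features at 3 h (SD 1.13 and 1.16), and the part of that spread in the counts was not tested.

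One block of 10 features was low in a single genotype 3 h after ACC. CA0030, CA0705, CA0850, U104, U109, U119, U162, U170, U474 and U496 were between -1.95 and -1.33 in FLIP94-508C 3 h after ACC and within 0.2 of control in both other genotypes, a pattern found in 24 of the 559 CA or U features and singled out after the values were seen. Under SA at 3 h 6 of the 10 were also at or under -0.4 in Lasseter (median -0.60, from -1.24 to 0.31) and 2 in ICC3996 (median -0.16, from -0.70 to 0.30), against 0 in FLIP94-508C (median 0.13, from -0.19 to 0.30). The medians over all CA or U features in these samples were -0.26, 0.0006 and -0.08 in the same order. The share of all features at or under -0.4 was not counted there, and the rule chose U104, U109 and U162 on their SA means as well. U104, with the largest range between genotypes at 3 h under ACC, was at -1.95 (FLIP94-508C), 0.16 (ICC3996) and 0.04 (Lasseter). At 27 h under ACC the 10 features were still below control in FLIP94-508C, where they lay between -0.94 and -0.34 (median -0.60). Of these, CA0030 (-0.34), U109 (-0.49) and U119 (-0.36) were inside the 27 h limits there. The medians of the 10 features at that time were also low in ICC3996 (-0.71, values from -0.94 to 0.01) and near control in Lasseter (0.03, values from -0.34 to 0.24). Under SA the like pattern, at or under -1 in Lasseter and within 0.2 of control in the other two, held for 4 of the 35 features (CA0844, U162, U219 and U428) and for 6 of the 559.

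**Figure D2:**
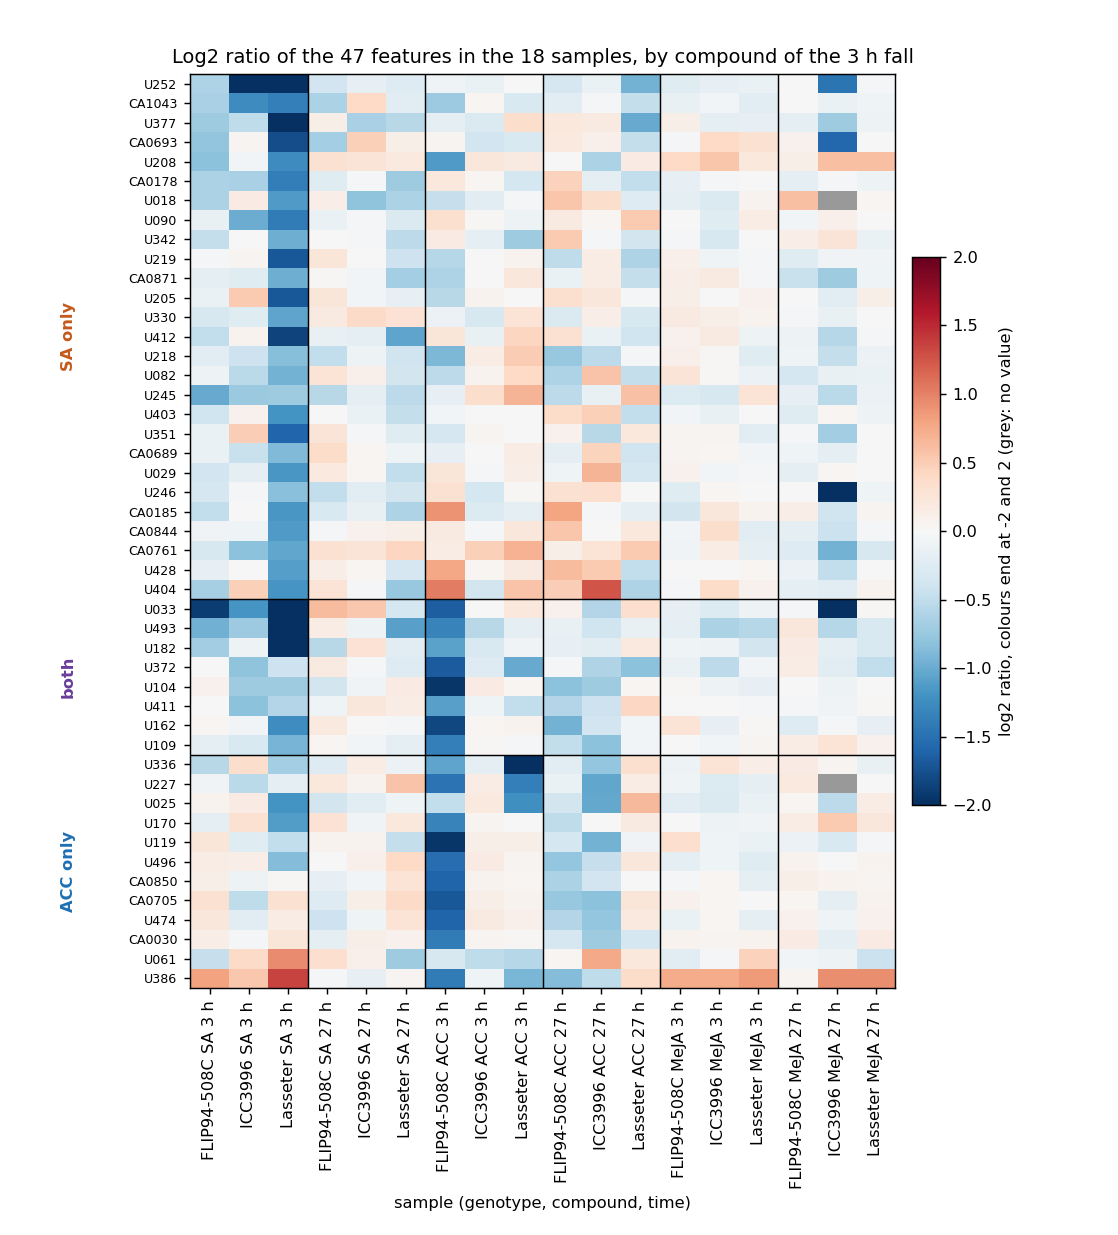
Log2 ratios of the 47 features (rows) in the 18 samples (columns), ordered by the compound of the 3 h fall; blue is below and red above control, colours end at -2 and 2, and grey marks the 2 missing values. The dark blue columns are Lasseter 3 h after SA, where 26 of 47 were at or under -1, and FLIP94-508C 3 h after ACC, where 19 were.

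The return towards control at 27 h was partial in many means and held less for the single genotypes. Of the 35 features that met the 3 h limit under SA, all had a higher mean at 27 h, by 0.04 to 3.10 with a median of 0.49. Higher in all 3 genotypes were 21 of the 35, and 36 of all 116 CA or U features at that limit with every value. The change was under 0.2 in 4 of the 35, and 9 of the 35 were still at or under -0.3 at 27 h. Of the 20 that met the 3 h limit under ACC, the change ran from -0.03 to 0.88 with a median of 0.29, was under 0.2 in 9, and went upward in all 3 genotypes in 3. Among all CA or U features at that limit under ACC, 16 of the 118 with every value rose in all 3 genotypes, a share near that of the 20. At 27 h under ACC 12 of these 20 were still at or under -0.3. Of all 47 features, 3 had a 27 h mean at or under -0.4 under SA and 9 under ACC. The 3 were chosen for SA only, so they still met the limit set for 3 h. The 9 included 3 of the 12 features chosen for ACC only and 4 of the 8 chosen for both, which also still met it. The other 2, U218 and U252, were chosen for SA only and were not at the limit under ACC at 3 h. Their ACC means were -0.08 and -0.07 at 3 h and -0.43 and -0.47 at 27 h. The rule fixes an upward change where the 3 h mean was at or under -0.5. Of the 35 features 15, and of the 20 features 9, had a 3 h mean above -0.5 and were not bound in this way. The values behind these changes chose the features, so the changes describe the choice.

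Genotypes on opposite sides of control made up 34 of the 47 means at 27 h under SA and 34 under ACC. Among the 112 features with no 3 h fall the numbers were 78 and 73. Over all CA or U features with 3 values they were 199 of 456 and 198 of 462. Under SA at 27 h 18 of the 47 features had at least 1 genotype outside the limits of -0.5 and 0.4 that the mean had to meet, most often Lasseter (14 features). Under ACC 38 of the 47 had one, with ICC3996 outside in 22, FLIP94-508C in 20 and Lasseter in 10, and in 5 features genotypes lay outside on both sides. Only 3 features had every SA and ACC value at 27 h inside the limits. U336, the lowest feature of those chosen for ACC only, was at -1.05 (FLIP94-508C), -0.17 (ICC3996) and -2.11 (Lasseter) at 3 h under ACC. At 27 h it was at -0.23, -0.77 and 0.32, so that Lasseter had passed above control while ICC3996 was lower than at 3 h. U227, the next lowest, was at -1.47, 0.15 and -1.37 at 3 h and at -0.13, -1.04 and 0.15 at 27 h in the same order of genotypes, with ICC3996 again lower at 27 h than at 3 h.

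**Figure D3:**
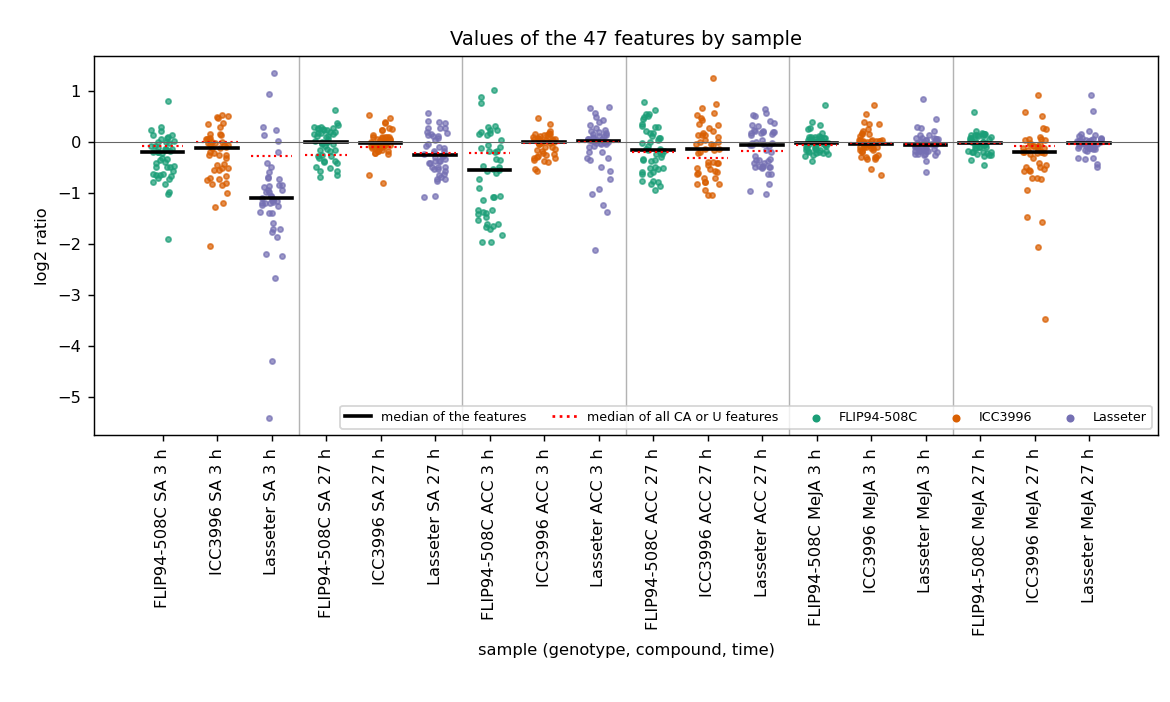
Log2 ratio (y axis) of the 47 features in each of the 18 samples (x axis), 1 point a feature, coloured by genotype; black bars are the medians of the 47 features and dotted red bars those of all CA or U features. The black bar lies well below the red one in Lasseter 3 h after SA (-1.10 and -0.26) and in FLIP94-508C 3 h after ACC (-0.55 and -0.21), and within 0.2 of it elsewhere except FLIP94-508C 27 h after SA (0.01 and -0.25).

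U033 and U493 had the lowest averages of the SA and ACC means at 3 h, both among the 8 features chosen for both compounds. U033 was at -1.91 (FLIP94-508C), -1.19 (ICC3996) and -5.41 (Lasseter) 3 h after SA, and at 0.63, 0.54 and -0.36 at 27 h. The range between its genotypes at 3 h, 4.22, was the largest of the 47 under SA. Under ACC U033 was at -1.65, -0.01 and 0.21 at 3 h and at 0.09, -0.59 and 0.34 at 27 h, so only FLIP94-508C was low there at 3 h. U493 was at -0.96, -0.72 and -4.28 at 3 h after SA and at 0.16, -0.10 and -1.08 at 27 h, again lowest in Lasseter and still below control there. Under ACC U493 was below control in every genotype, at -1.33, -0.56 and -0.19 at 3 h and at -0.14, -0.40 and -0.15 at 27 h.

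The features whose 18 values followed U033 most closely, of 376 CA or U features with no missing value, were U493 (Pearson r = 0.85) and U351 (r = 0.83), both among the 47. The 18 values share genotypes and compounds. Those after SA and ACC also chose the features, so likeness among the 47 is not independent of the choice. The likeness to U351 rested on 2 samples. Without Lasseter 3 h after SA and ICC3996 27 h after MeJA, the samples farthest from the median of U033, r was 0.79 for U493 and 0.29 for U351. Spearman's rho over the 18 samples was 0.81 for U493 and 0.64 for U351.

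Of the features chosen for SA only, U252 and U377 had the lowest means. U252 was at -0.62 (FLIP94-508C), -2.04 (ICC3996) and -2.19 (Lasseter) 3 h after SA, below control in all genotypes, and at -0.39, -0.17 and -0.26 at 27 h. At 3 h after ACC it was at -0.09, -0.13 and 0.00. U377 was at -0.71, -0.51 and -2.67 at 3 h after SA and at 0.11, -0.65 and -0.56 at 27 h, where ICC3996 was no higher than at 3 h. U245 is an example of an even fall, at -1.01, -0.75 and -0.71 at 3 h after SA, and it stayed below control at 27 h, at -0.56, -0.18 and -0.52.

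The choice of the features used no MeJA value, and the tests are of the MeJA means. Moderated linear models were fitted with limma to all 18 samples, with a mean for each compound and time and a genotype term, and p-values were adjusted by the Benjamini-Hochberg method over 523 features with a threshold of 0.05. All 47 features were among the 523. At 3 h after MeJA 0 of 47 passed (0% of all features tested), and 1 of 47 had an unadjusted p under 0.05 (1.91% of all tested). At 27 h 0 of 47 passed (0% of all tested), and 3 had an unadjusted p under 0.05 (5.16% of all tested). The change from 3 h to 27 h under MeJA gave 0 calls (0% of all tested) and 0 of 47 at an unadjusted p under 0.05 (0.191% of all tested). The lowest adjusted p among the 47 in limma was 0.997 at 3 h, 0.713 at 27 h and 0.999 for the change. All groups share 1 estimate of the spread in this model, so the SA and ACC values that chose the features also set the standard errors and the genotype term, and these p-values are not independent of the choice. The SA and ACC samples varied more than 5 of the 6 MeJA samples.

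A fit of the 6 MeJA samples alone, which uses none of the values behind the choice, gave smaller standard errors for 46 of the 47 features (median 0.11 in place of 0.26 at 3 h). In this limma fit over 577 features 0 of 47 passed at 3 h, at 27 h and for the change between them (0% of all tested each time), with lowest adjusted p-values of 0.355, 0.337 and 0.747. At an unadjusted p under 0.05 were 3 of 47 at 3 h (U208, U386 and U493; 10.9% of all tested), 5 at 27 h (CA0761, U170, U208, U377 and U386; 13.9%) and 0 for the change (3.12%), named because they are few. With 2 residual degrees of freedom it does not show that MeJA left the features unchanged either.

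Few of the 47 features were low 3 h after MeJA. At that time 1 feature had a mean at or under -0.4 (6.8% of the 515 measured CA or U features), and 1 had one at or over 0.4 (2.33%). Of the 112 features inside the 27 h limits with no 3 h fall, 0 had a mean at or under -0.4, and their highest mean was 0.19. The median of the 47 means was -0.03, against -0.03 over all CA or U features and 0.03 over the 112 features inside the 27 h limits with no 3 h fall. Below control in all 3 genotypes were 12 of 47 (28.2% of all with 3 values, 14 of the 112) and above it in all 3 were 7 (17.6%, 41 of the 112). No single value of the 47 was at or under -1 at 3 h after MeJA in FLIP94-508C (0.615% of all measured), ICC3996 (1.37%) or Lasseter (0.784%). By the compound of the 3 h fall, the medians 3 h after MeJA were -0.02 for SA only, -0.01 for ACC only and -0.13 for both. The single feature at or under -0.4 was U493, at -0.19 (FLIP94-508C), -0.64 (ICC3996) and -0.58 (Lasseter), and it did not pass (log2 ratio -0.47, SE 0.47, adjusted p = 0.997 in limma on all samples; SE 0.09, adjusted p = 0.355 on the MeJA samples alone). U372 was next lowest, at -0.13, -0.52 and -0.05.

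At 27 h after MeJA low values were found in ICC3996. The median of the 47 means was -0.11, against -0.06 over all CA or U features and 0.01 over the 112 features with no 3 h fall. Without the ICC3996 sample it was -0.02. Of the 47, 6 had a mean at or under -0.4 (14% of all measured, 2 of the 112) and without the ICC3996 sample 0 did. In that sample 35 of 45 measured features were below control (58.2% of all measured CA or U features), 4 were at or under -1 (11.9%, and 1.79% of the 112), and values ran from -3.47 to 0.92. The 2 values missing among the 846 of the 47 features were also in this sample, which had the widest spread of the MeJA samples (SD 1.07 over all CA or U features, 0.25 to 0.32 in the other 5). Of the 26 features chosen for SA only with a value there, 13 were at or under -0.4, against 1 of 11 chosen for ACC only, 2 of 8 chosen for both, 30.4% of all measured CA or U features and 15.2% of the 112 with no 3 h fall. Whether the classes differ in this single sample was not tested.

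U033 and U246 had the lowest means at 27 h after MeJA. U033 was at -0.04 (FLIP94-508C), -3.47 (ICC3996) and 0.02 (Lasseter) (adjusted p = 0.993 in limma), and U246 at -0.01, -2.06 and -0.09 (adjusted p = 0.766), so that both means came from ICC3996. CA0761 was below control in every genotype, at -0.26, -0.94 and -0.32 (log2 ratio -0.51, SE 0.19, unadjusted p = 0.0169, adjusted p = 0.713 in limma). CA0761 was also the lowest by p for the change from 3 h to 27 h under MeJA (difference -0.48, SE 0.26, adjusted p = 0.999), followed by CA0871 (difference -0.51, SE 0.31, adjusted p = 0.999). Scaling the samples to equal spread brought the 27 h value of CA0761 past the threshold (adjusted p = 0.0285), 1 of the 47 features where 2.87% of all tested passed, while over 15 alternatives its adjusted p ran from 0.0285 to 0.9998.

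U386 and U208 had the highest means after MeJA. U386 was at 0.74 (FLIP94-508C), 0.74 (ICC3996) and 0.85 (Lasseter) at 3 h (log2 ratio 0.77, SE 0.23, unadjusted p = 0.00544, adjusted p = 0.997 in limma). At 27 h it was at 0.05, 0.92 and 0.93 (adjusted p = 0.713), with FLIP94-508C back at control. The 3 h value of U386 passed with samples scaled to equal spread (adjusted p = 0.0108; 1 of 47, 3.44% of all tested) and with sample weights (adjusted p = 0.0193; 1 of 47, 0.765% of all tested), and over 15 alternatives its adjusted p ran from 0.0108 to 0.9998. At 3 h after SA U386 was above control as well, at 0.80, 0.53 and 1.35, and only its ACC values, -1.40, -0.09 and -0.92 at 3 h, brought it into the group. At 27 h U386 was at -0.04, -0.16 and 0.05 under SA and at -0.86, -0.50 and 0.37 under ACC. U208, chosen for SA, was at 0.40, 0.56 and 0.21 at 3 h and at 0.11, 0.61 and 0.61 at 27 h after MeJA, above control in all 6 samples, and passed at neither time (adjusted p = 0.997 and 0.993 in limma).

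**Figure D4:**
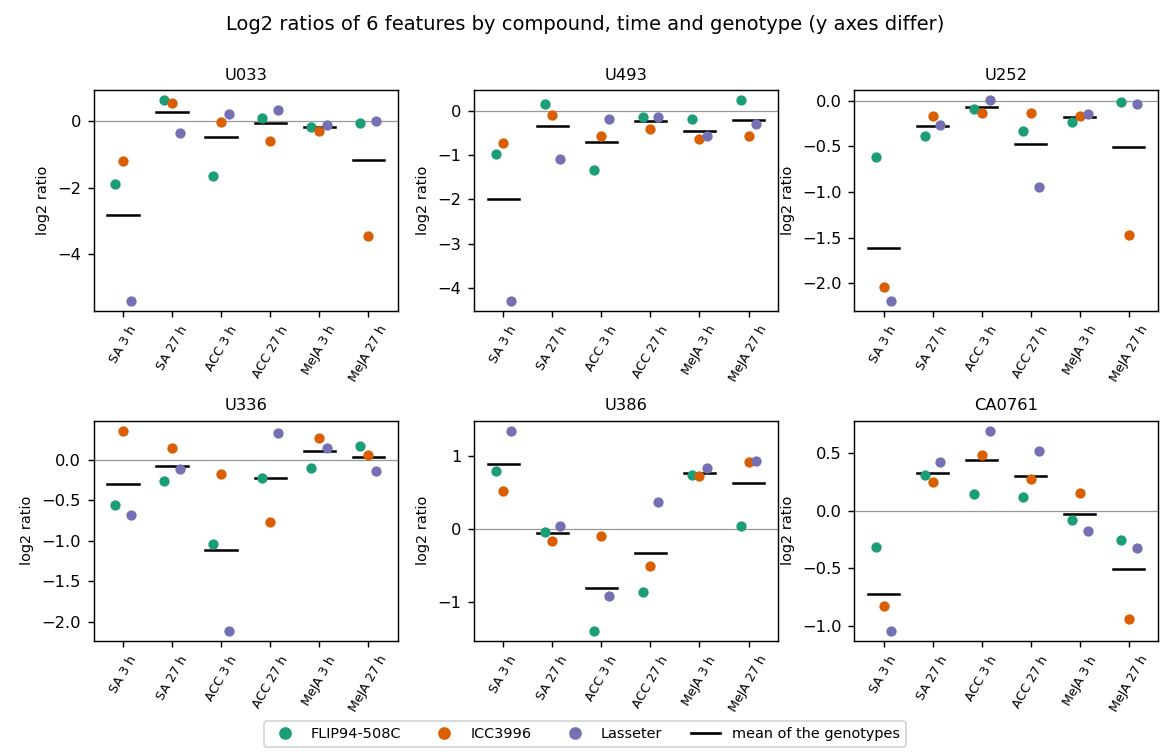
Log2 ratios (y axis, scales differ) of 6 features by compound and time (x axis), 1 point a genotype, with black bars for the mean of the 3 genotypes. U033 and U493 are lowest in Lasseter 3 h after SA (-5.41 and -4.28), U252 is low in all genotypes 3 h after SA, U336 is lowest 3 h after ACC, U386 is above control after SA and MeJA at 3 h and below it after ACC, and CA0761 is below control 3 h after SA and 27 h after MeJA.

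Genotypes were compared in the 6 MeJA samples alone, where the choice of features used no value. A moderated F test in limma with a time term and 2 residual degrees of freedom was run over 561 features. No feature of the 47 passed (0% of all tested), and 1 had an unadjusted p under 0.05 (3.21% of all tested). That was U493, lowest by p (F = 7.61, unadjusted p = 0.0428, adjusted p = 0.985), with a higher ratio in FLIP94-508C than in ICC3996 and Lasseter at both times. U245 followed (F = 3.64, adjusted p = 0.985). Leaving out the ICC3996 sample at 3 h gave 2 calls among the 45 of these features still tested, U033 and U246, where 3.02% of all 497 features tested passed, with ICC3996 then represented by its 27 h sample alone.

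Spots of the 47 features were rarely omitted. Of their 282 MeJA values 2 were missing (0.709%), and of the 672 of the 112 features with no 3 h fall 0 were. Among the CA or U features outside the 27 h limits that also had at least 2 values in each SA and ACC group, 3.26% of the MeJA values were missing, and 12.9% over all 559. The 47 features had no missing SA or ACC value, and neither had the 112, although the rule allowed 1 in each group. Over the 440 features with at least 2 values in each of these groups, 1.02% of the SA and ACC values were missing.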

How the data were processed

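RNA of treated and untreated chickpea shoots was compared on a spotted 2-colour array in 18 samples. Per the series' design text, the authors scanned the slides with Jaguar 2.0, quantified spots with ImaGene 5 (5.5 per the deposited readme) and transformed the values in GeneSight 3: flagged spots were omitted, local background was subtracted, ratios of Cy5 to Cy3 were Lowess-normalised and log-transformed with a shift, and duplicate spots were merged. The deposited values are therefore log2 ratios, per the labels each the mean of 3 biological replications. The size of the shift is not given in the sources; it pulls ratios of dim spots towards 0.

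Computed here were the rule, group means and SD over genotypes, and models with limma 3.58.1 in R 4.3.3 and Python 3.11.15, on features with at least 2 values in each of the 6 groups (10 residual degrees of freedom). Tests of means were two-sided, and the genotype test was an F test. The models were also run on simulated data in which every sample had the spread of the MeJA values. The wider spread of the SA and ACC samples was not simulated, so that run does not show how many changes the tests would miss. The genotype term pairs samples of the same line. Arrays give no read depth, and their number limits the precision. Here n counts genotypes. In fits with the genotype term, differences of a line that are the same in every group are taken out. Their p-values for means measure the spread between lines that remains, together with measurement error. In the genotype F test the differences between lines are what is tested. Samples were grouped by title. Members, alternatives and tests were chosen with earlier results of these data known. Named features were the 2 most extreme of each kind and class, the 2 lowest p of each test, those nearest the limits, those with the widest genotype range and the 2 most like U033; the block of 10 features, the 4 like it under SA and U245 in the account of SA were named after their values were seen.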

Additional observations from a re-analysis of the deposited data

Results flagged for a closer look

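In 6 cases every genotype lay on one side of control at 3 h and on the other at 27 h under the same compound. Under SA these were CA0761 (27 h minus 3 h 1.06, from -0.73 to 0.33), U208 (0.96, from -0.71 to 0.25), U330 (0.82, from -0.54 to 0.28) and U227 (0.55, from -0.26 to 0.28). Under ACC it was U061 (0.80, from -0.47 to 0.34). The rule used these values, so the differences under SA and ACC were not tested. Under MeJA it was U170 (0.36, from -0.06 to 0.30), which did not pass for the change between the times (SE 0.37, adjusted p = 0.999 in limma on all samples; SE 0.15, adjusted p = 0.747 on the MeJA samples alone).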

How the results depend on the processing

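The group depends on where the limits lie and on single genotypes. It held 30 features with a 3 h limit of -0.5 and 7 with a limit of -1, and 27 to 82 when 1 genotype was left out of all groups, lowest without Lasseter (13 of them shared) and highest without ICC3996 (42 shared). In counts added after seeing the data, leaving out 1 sample left 13 to 34 of the 35 features at or under -0.4 at 3 h under SA (13 without Lasseter), 6 to 20 of the 20 under ACC (6 without FLIP94-508C) and 0 to 7 where 6 had been at 27 h under MeJA (0 without ICC3996). The median of the 47 features 3 h after MeJA was 0.0125 with sample medians subtracted and between -0.0463 and 0.0088 without 1 sample, and at 27 h it stayed below 0 in all alternatives run. Counts of the 47 called under MeJA, 0 in each test, became 1 at 3 h (U386; 18 of all 523 features) and 1 at 27 h (CA0761; 15 of 523) with equal spread and 1 at 3 h (U386; 4 of 523) with sample weights. Leaving out 1 MeJA sample gave 0 to 2 calls in the genotype test, the 2 of 45 tested without ICC3996 at 3 h, where 15 of all 497 features passed. The other alternatives for these tests (sample medians subtracted, other feature filters, a variance trend, MeJA samples only and the methods' t-test) gave 0, and without the genotype block, the pairing by line, the counts at both times and for the change were also 0. The cause of these shifts was not tested.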
